A study of Mus musculus with 11 samples.

Results

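The Hox genes of clusters A to D were read out of a microarray comparison of Sohlh1 knockout, Sohlh2 knockout and wild-type ovaries of newborn mice. Members were all genes whose annotated symbol is Hoxa, Hoxb, Hoxc or Hoxd followed by a number, and each gene was represented by its brightest probe. In all, 38 Hox genes had a probe among 19057 genes with one, and 25 of the 38 could be tested among 13350 genes tested. Total RNA from ovaries was measured on Illumina MouseWG-6 v2 BeadChips, with an array for each sample, on which each gene is read as the brightness of 1 or more probes. The groups were Sohlh1 knockout ovaries (Sohlh1 KO, n = 4), Sohlh2 knockout ovaries (Sohlh2 KO, n = 3, numbered 2, 3 and 4 in the titles) and wild-type ovaries (n = 4), all newborn and all of the strain labelled C57BL/6/129S6/SvEv. The proteins Sohlh1 and Sohlh2 are basic helix-loop-helix factors that germ cells use to regulate transcription. The labels give neither the knockout alleles nor whether a replicate was 1 animal or a pool, so p-values measure only the spread between these samples, which may be technical.

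Hox genes encode homeodomain transcription factors that set position along the body axis. In the mouse they lie in 4 clusters, HoxA on chromosome 6, HoxB on chromosome 11, HoxC on chromosome 15 and HoxD on chromosome 2, and genes of the same number in different clusters are paralogs. Within a cluster, genes of low number are expressed more anteriorly and genes of high number more posteriorly. In the female tract, Hoxa9, Hoxa10, Hoxa11 and Hoxa13 are known for an ordered expression along the Müllerian duct, in the oviduct, the uterus, the lower uterus and cervix, and the vagina.

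Values are normalized log2 intensities, in which 1 unit is a doubling, and each ± gives the SD between arrays of the same group. A probe counted as detected above background where it was brighter than 95% of that array's olfactory receptor probes, and a gene was tested when its probe did so on at least 3 arrays. Because probes differ in brightness for equal amounts of RNA, levels are compared between groups for 1 gene, never between genes. In bulk tissue, fewer cells of a type and less RNA per cell cannot be told apart. Arrays of 1 group correlated at 0.969 to 0.992. Between 46.9% and 49.3% of probes were above background in Sohlh1 KO, 45.2% to 48.1% in Sohlh2 KO and 48.7% to 52.6% in wild type. Of 2 chips, the first carried Sohlh1 KO 1 and 2 with all 4 wild-type arrays (chip 1), and the other carried Sohlh1 KO 3 and 4 with all 3 Sohlh2 KO arrays (chip 2). As a check of the labels, Sohlh1 averaged 8.69 ± 0.29 in Sohlh1 KO and 11.26 ± 0.15 in wild type (SD, n = 4 each), and it was as low in Sohlh2 KO, at 8.70 ± 0.11 (SD, n = 3). Sohlh2 averaged 5.71 ± 0.44 in Sohlh1 KO, 4.70 ± 0.06 in Sohlh2 KO and 5.01 ± 0.14 in wild type, so the Sohlh2 probe was low in every group. Its difference between Sohlh2 KO and wild type did not pass the test (-0.31, adjusted p = 0.284, limma), while Sohlh2 was higher in Sohlh1 KO than in wild type (0.70, adjusted p = 0.0115). The knockout labels of the Sohlh2 KO arrays therefore could not be checked by that probe, and whether either probe lies in a deleted part is not stated.

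Newborn ovary RNA held transcripts from all 4 clusters. Of the 25 tested genes, 18 were above background on all 11 arrays and 7 on fewer, namely Hoxa9 (10 arrays), Hoxc4 (9), Hoxb3 (8), Hoxa13 (7), and Hoxa10, Hoxa11 and Hoxc5 (5 each). Another 13 genes were above background on 0 to 2 arrays and were not tested: Hoxa3 and Hoxa6 of HoxA, Hoxb1, Hoxb8 and Hoxb13 of HoxB, Hoxc8, Hoxc11, Hoxc12 and Hoxc13 of HoxC, and Hoxd1, Hoxd11, Hoxd12 and Hoxd13 of HoxD. By cluster, 8 of 10 HoxA genes, 7 of 10 HoxB genes, 5 of 9 HoxC genes and 5 of 9 HoxD genes were tested. Among paralogs 1 to 4, 8 of 11 genes were tested, among paralogs 5 to 8 it was 8 of 11, and among paralogs 9 to 13 it was 9 of 16. Paralog groups 1 and 12 had no tested gene, Hoxa11 was the tested gene of group 11, and Hoxa13 was that of group 13.

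**Figure D1:**
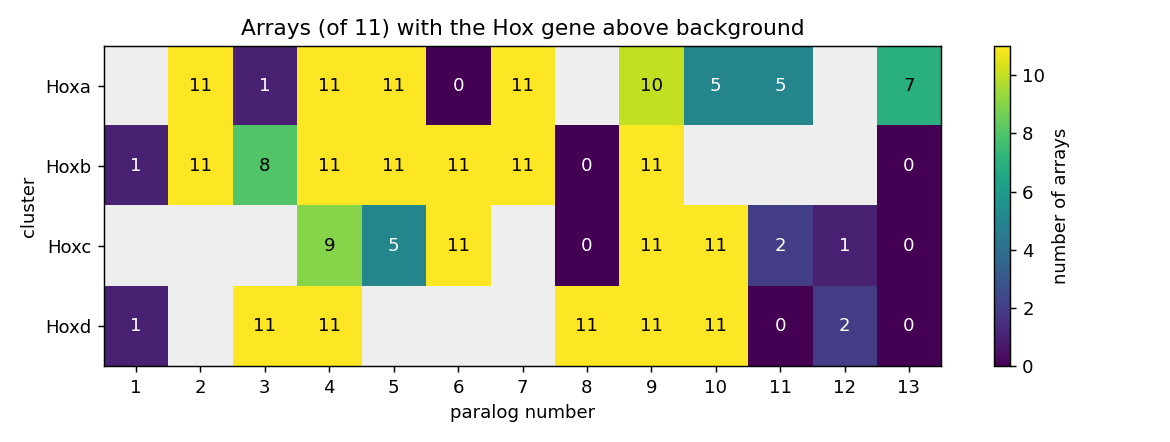
Number of the 11 arrays on which each Hox gene was above background, by cluster (rows) and paralog number (columns). Grey cells have no gene measured here. The 18 genes at 11 arrays lie in all 4 clusters, between paralog numbers 2 and 10, and genes of number 11 or more reached 7 arrays at most.

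A minority of the tested Hox genes differed from wild type in either knockout, and the calls went in both directions. In Sohlh1 KO, 10 of 25 Hox genes passed the test (40%), where 32.7% of all genes tested did. Of these, 3 rose (Hoxa2, Hoxa4 and Hoxa5), against a background of 16.3% of genes called higher, and 7 fell (Hoxa10, Hoxa11, Hoxb2, Hoxb6, Hoxb7, Hoxd4 and Hoxd10), against 16.4% called lower. Hoxa10 and Hoxa11 met the detection filter only through wild type, where they were higher, so these counts depend on that. In Sohlh2 KO, 4 of 25 passed (16%), where 25.5% of all genes did: Hoxa4, Hoxa5 and Hoxc9 rose (12.5% of all genes called higher) and Hoxd4 fell (13% called lower). Calls were made with limma at an adjusted p under 0.05, with Benjamini-Hochberg adjustment over all 13350 genes. The median log2 difference of the 25 genes was -0.12 in Sohlh1 KO and 0.09 in Sohlh2 KO, beside 0.03 and 0.04 over all genes tested. The arrays of knockout and wild type did not overlap for 9 of 25 Hox genes in Sohlh1 KO (31% of all genes) and for 10 of 25 in Sohlh2 KO (43.4%). Both comparisons use the same 4 wild-type arrays. Sohlh2 KO and wild-type arrays shared no chip, so that comparison is confounded with chip and linked only through the Sohlh1 KO arrays. With chip as a fixed block, 1 Hox gene was called higher and 1 lower in Sohlh2 KO. Hoxa4, Hoxa5 and Hoxd4 were called in both, and 11 Hox genes were called in at least 1.

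**Figure D2:**
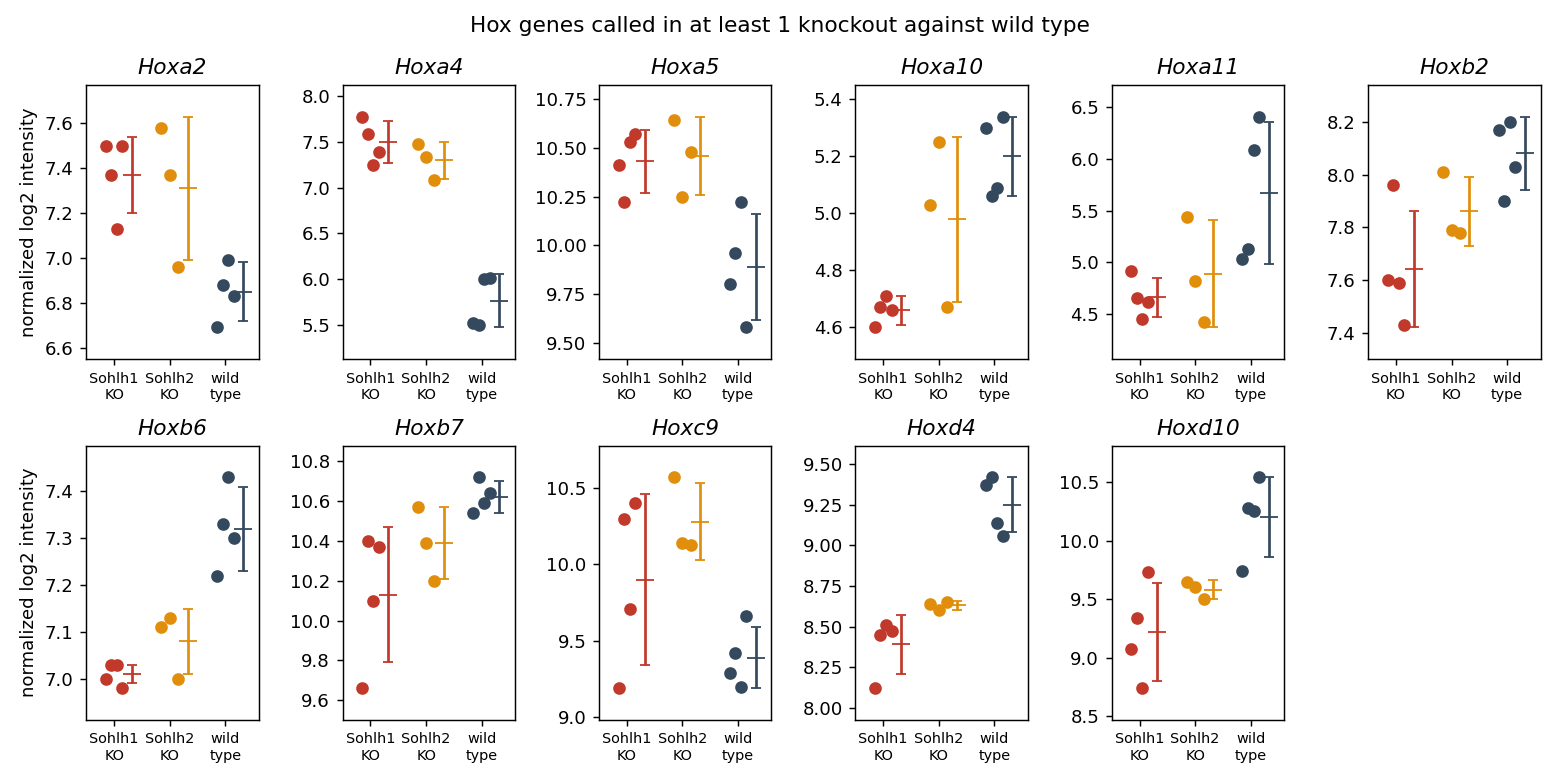
Normalized log2 intensity of the 11 Hox genes called in at least 1 knockout. Points are arrays, and bars to their right give the mean and the SD of Sohlh1 KO (n = 4), Sohlh2 KO (n = 3) and wild type (n = 4). Each panel has its own axis, which does not start at 0. All 7 knockout arrays of Hoxa4 (7.08 to 7.78) sit above the wild-type arrays (5.50 to 6.01), and all 7 of Hoxd4 (8.12 to 8.65) sit below them (9.06 to 9.42).

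Markers of other cell types moved together with the genotypes. The summed level below is the sum of a list's tested genes as linear normalized intensity, so a list's brightest genes weigh most in it. Over all genes, 16.3% were called higher and 16.4% lower in Sohlh1 KO, and 12.5% and 13% in Sohlh2 KO. Of 5 tested markers of oviduct and ciliated epithelium (such as Ovgp1, which encodes an oviductal glycoprotein), 5 fell in Sohlh1 KO and 4 in Sohlh2 KO, and their sum was 2960 to 4500 in Sohlh1 KO, 3680 to 4230 in Sohlh2 KO and 16000 to 21100 in wild type. Epcam was above background on 0 arrays. Of 5 smooth muscle markers, 4 fell in Sohlh1 KO and 3 in Sohlh2 KO, with sums of 13500 to 19500, 22000 to 25300 and, in wild type, 34600 to 37400, and Cnn1 was above background on 0 arrays. Fat markers summed to 139 to 160 in Sohlh1 KO, 136 to 152 in Sohlh2 KO and 1350 to 2480 in wild type (3 of 5 fell in each knockout). Red blood cell markers ran the other way, at 27000 to 41100 in Sohlh1 KO, 24000 to 33500 in Sohlh2 KO and 6390 to 10900 in wild type (3 of 3 and 2 of 3 rose). Myeloid markers summed to 4880 to 28700, 1010 to 8360 and, in wild type, 369 to 635. In Sohlh1 KO 6 of 6 rose, and in Sohlh2 KO 2 of 6 rose and 1 fell.

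Markers of the cells of the ovary itself were also summed. Their counts stand beside 16.3% of all genes called higher and 16.4% lower in Sohlh1 KO, and 12.5% and 13% in Sohlh2 KO. Oocyte markers summed to 2480 to 5860 in Sohlh1 KO, 2470 to 2880 in Sohlh2 KO and 15900 to 19200 in wild type, with 2 of 6 higher and 2 lower in Sohlh1 KO and 1 higher and 3 lower in Sohlh2 KO. Markers of pregranulosa cells, the somatic cells that surround oocytes, summed to 4240 to 5340, 4450 to 5250 and, in wild type, 4160 to 4350, with 2 of 6 called in each knockout, both higher. Endothelial markers summed to 3070 to 3550, 2920 to 3480 and, in wild type, 4120 to 4420. There 2 of 5 rose and 1 fell in Sohlh1 KO, and 1 rose and 1 fell in Sohlh2 KO. For mesonephros and Müllerian duct markers, 3 of which were tested, sums were 378 to 679 in Sohlh1 KO, 529 to 555 in Sohlh2 KO and 545 to 787 in wild type. Of these, 1 rose and 1 fell in Sohlh1 KO and 1 rose in Sohlh2 KO, and Emx2 was above background on 0 arrays. The part of any of these markers in the Hox differences was not tested.

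HoxA held the largest difference of the Hox genes, that of Hoxa4, and calls in both directions. In Sohlh1 KO, Hoxa2, Hoxa4 and Hoxa5 rose and Hoxa10 and Hoxa11 fell, and in Sohlh2 KO Hoxa4 and Hoxa5 rose and 0 HoxA genes fell. The median log2 difference of its 8 tested genes was 0.12 in Sohlh1 KO, where 62.5% of them were called (32.7% of all genes), and 0.44 in Sohlh2 KO, where 25% were called (25.5% of all genes). Hoxa7, Hoxa9 and Hoxa13, which lie among or beyond these genes, did not pass the test in either knockout. The 62.5% counts Hoxa10 and Hoxa11, which met the detection filter only through wild type, where they were higher.

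Hoxa4, a gene of the anterior part of HoxA known for vertebral patterning, was at 7.78, 7.59, 7.25 and 7.39 in Sohlh1 KO, at 7.48, 7.34 and 7.08 in Sohlh2 KO and at 5.52, 5.50, 6.00 and 6.01 in wild type. Every knockout array was more than 1 log2 unit above every wild-type array. Hoxa4 averaged 7.50 ± 0.23 in Sohlh1 KO and 5.76 ± 0.29 in wild type (SD, n = 4 each), a log2 difference of 1.74 (SE 0.167, 95% interval 1.38 to 2.10), or 3.35-fold (limma, adjusted p = 3.61e-06). In Sohlh2 KO it averaged 7.30 ± 0.20 (SD, n = 3), a difference of 1.54 (SE 0.181, 95% interval 1.15 to 1.93), or 2.91-fold (adjusted p = 3.09e-05). The call held under every alternative that was run, but its size did not: without background correction, on the deposited values, the differences were 0.784 in Sohlh1 KO and 0.665 in Sohlh2 KO.

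Hoxa5, known for lung and thoracic patterning, was at 10.41, 10.22, 10.53 and 10.57 in Sohlh1 KO, at 10.64, 10.25 and 10.48 in Sohlh2 KO and at 9.80, 9.96, 10.22 and 9.58 in wild type. The groups met at wild type 3, which equalled Sohlh1 KO 2 to 2 decimals without passing it. Hoxa5 was 1.46-fold higher in Sohlh1 KO (0.54, SE 0.152, adjusted p = 0.0151, limma) and 1.48-fold higher in Sohlh2 KO (0.57, SE 0.165, adjusted p = 0.0229). Both calls were lost with chip as a fixed block, at 0.425 (adjusted p = 0.108) and 0.331 (adjusted p = 0.478). With chip as a random block the Sohlh2 KO call held (0.539, adjusted p = 0.0476). Leaving out wild type 4 also lost both (0.44 and 0.46, adjusted p = 0.0513 and 0.0655), and the Sohlh2 KO call was lost without wild type 1 (0.54, adjusted p = 0.0558), Sohlh2 KO 2 (0.48, adjusted p = 0.104) or Sohlh2 KO 4 (0.55, adjusted p = 0.0718).

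Hoxa2, a gene of hindbrain and second pharyngeal arch identity, was at 7.50, 7.37, 7.13 and 7.50 in Sohlh1 KO, at 7.58, 7.37 and 6.96 in Sohlh2 KO and at 6.69, 6.88, 6.99 and 6.83 in wild type. The Sohlh1 KO arrays were all above wild type, while Sohlh2 KO 4 lay within it. The difference was 0.53 in Sohlh1 KO (SE 0.149, adjusted p = 0.0157, limma) and 0.46 in Sohlh2 KO (SE 0.161, adjusted p = 0.0532), which did not pass. Without background correction these were 0.281 and 0.245, and without wild type 2 and 3 the Sohlh1 KO call was lost (0.61, adjusted p = 0.0515). Without Sohlh2 KO 4 the Sohlh2 KO difference was 0.63 (adjusted p = 0.0162), and it also passed at 0.46 without Sohlh1 KO 1 (adjusted p = 0.0452) or Sohlh1 KO 3 (adjusted p = 0.048). A dimmer second Hoxa2 probe was higher in both knockouts, by 0.98 in Sohlh1 KO (adjusted p = 0.000389 over all probes) and 0.95 in Sohlh2 KO (adjusted p = 0.00124).

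At the other end of HoxA, 2 genes known for uterine patterning were low. Hoxa11 was at 4.92, 4.65, 4.45 and 4.62 in Sohlh1 KO, at 5.44, 4.82 and 4.42 in Sohlh2 KO and at 5.03, 5.13, 6.09 and 6.41 in wild type. It was above background on 0 of 4 Sohlh1 KO arrays, 1 of 3 Sohlh2 KO arrays and 4 of 4 wild-type arrays. The measured means were 4.66 ± 0.19 in Sohlh1 KO and 5.67 ± 0.69 in wild type (SD, n = 4 each), a measured log2 difference of -1.01 (adjusted p = 0.0208, limma). With Sohlh1 KO raised to the background level, Hoxa11 was at least 1.47-fold lower, a bound that was not itself tested. Wild type 3 and 4 stood well above wild type 1 and 2, and without wild type 3, wild type 4 or Sohlh1 KO 3 the call was lost (-0.86, -0.76 and -0.94, adjusted p = 0.065, 0.0611 and 0.0539), as it was with a fixed chip block (-0.884, adjusted p = 0.108). In Sohlh2 KO the difference of -0.77 did not pass (adjusted p = 0.103), but did without wild type 1 (-0.98, adjusted p = 0.0458).

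Hoxa10 was at 4.60, 4.67, 4.71 and 4.66 in Sohlh1 KO, at 5.03, 5.25 and 4.67 in Sohlh2 KO and at 5.30, 5.06, 5.09 and 5.34 in wild type. Like Hoxa11 it was above background on 0 of 4 Sohlh1 KO arrays, 1 of 3 Sohlh2 KO arrays and 4 of 4 wild-type arrays. Both genes met the filter of 3 arrays only through wild type, where they were higher. Their place among the tested genes, and these counts, therefore depend on wild type being higher. The means of Hoxa10 were 4.66 ± 0.05 in Sohlh1 KO and 5.20 ± 0.14 in wild type (SD, n = 4 each), a measured log2 difference of -0.54 (adjusted p = 0.00796, limma). With Sohlh1 KO raised to the background level, Hoxa10 was at least 1.06-fold lower. That bound is small, and wild type was itself near background. The measured difference in Sohlh2 KO was -0.22 (adjusted p = 0.31). Hoxa9 and Hoxa13, the other Müllerian duct genes of the cluster, differed by 0.02 and 0.08 in Sohlh1 KO and by 0.42 and 0.11 in Sohlh2 KO, and neither passed the test.

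Hoxa7, the brightest HoxA probe, was at 9.15, 10.90, 10.35 and 10.46 in Sohlh1 KO, at 10.77, 10.50 and 10.66 in Sohlh2 KO and at 10.04, 10.15, 10.15 and 9.86 in wild type. A single array, Sohlh1 KO 1, lay below wild type, and the other 6 knockout arrays lay above it. The differences of 0.16 in Sohlh1 KO (95% interval -0.44 to 0.77) and 0.59 in Sohlh2 KO (95% interval -0.06 to 1.25) did not pass (limma, adjusted p = 0.692 and 0.176). Without Sohlh1 KO 1 they were 0.52 (adjusted p = 0.0169) and 0.59 (adjusted p = 0.00973), as all groups share 1 estimate of the spread.

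HoxB showed only lower calls, all small and all in Sohlh1 KO. Hoxb2, Hoxb6 and Hoxb7 fell there (3 of 7 tested, 42.9%, beside 32.7% of all genes), and 0 of 7 passed in Sohlh2 KO (25.5% of all genes). The median log2 difference of the cluster was -0.12 in Sohlh1 KO and -0.15 in Sohlh2 KO. Hoxb3, Hoxb4, Hoxb5 and Hoxb9 were not called in either knockout.

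Hoxb7, the brightest HoxB probe and a gene of the thoracic region, was at 9.66, 10.40, 10.10 and 10.37 in Sohlh1 KO, at 10.57, 10.39 and 10.20 in Sohlh2 KO and at 10.54, 10.72, 10.59 and 10.64 in wild type. Its 4 Sohlh1 KO arrays lay below wild type, with Sohlh1 KO 1 the lowest. The difference was -0.49 in Sohlh1 KO (SE 0.161, adjusted p = 0.0332, limma) and -0.24 in Sohlh2 KO (adjusted p = 0.351). A second Hoxb7 probe gave -0.60 (adjusted p = 0.0109 over all probes) and -0.25 (adjusted p = 0.31).

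Hoxb6 was at 7.0, 7.03, 7.03 and 6.98 in Sohlh1 KO, at 7.11, 7.13 and 7.0 in Sohlh2 KO and at 7.22, 7.33, 7.43 and 7.30 in wild type. All 7 knockout arrays were below all wild-type arrays, by little. The difference was -0.31 in Sohlh1 KO (SE 0.1, adjusted p = 0.0321, limma) and -0.24 in Sohlh2 KO (SE 0.109, adjusted p = 0.127). Hoxb2, a hindbrain gene, was at 7.60, 7.96, 7.59 and 7.43 in Sohlh1 KO, at 8.01, 7.79 and 7.78 in Sohlh2 KO and at 8.17, 7.90, 8.20 and 8.03 in wild type. Sohlh1 KO 2 lay within the wild-type range, so the groups overlapped, and the difference was -0.43 (SE 0.135, adjusted p = 0.0261). In Sohlh2 KO Hoxb2 differed by -0.21 (adjusted p = 0.313).

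The 3 HoxB calls did not hold when single arrays were left out. Hoxb7 lost its call without any 1 of Sohlh1 KO 1, Sohlh1 KO 3 or wild type 1, 2, 3 or 4 (-0.52 to -0.33, adjusted p = 0.0505 to 0.087). Hoxb6 lost it without any 1 of Sohlh1 KO 3, Sohlh1 KO 4 or wild type 2, 3 or 4 (-0.32 to -0.27, adjusted p = 0.0508 to 0.0881), and Hoxb2 without any 1 of Sohlh1 KO 3, Sohlh1 KO 4, wild type 1 or wild type 3 (-0.41 to -0.36, adjusted p = 0.0572 to 0.0718). With a fixed chip block, Hoxb6 was at -0.305 (adjusted p = 0.0893) and Hoxb2 at -0.297 (adjusted p = 0.182). On chip 1 alone, which holds Sohlh1 KO 1 and 2 and all wild-type arrays, Hoxb7 was at -0.593 (adjusted p = 0.0774). The direction stayed negative in each of these fits.

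HoxC had 5 tested genes and 1 call, with 0% called in Sohlh1 KO and 20% in Sohlh2 KO (32.7% and 25.5% of all genes). Hoxc9, known for setting thoracic motor neuron identity, was at 9.19, 10.30, 9.71 and 10.40 in Sohlh1 KO, at 10.57, 10.14 and 10.13 in Sohlh2 KO and at 9.29, 9.42, 9.20 and 9.66 in wild type. The 3 Sohlh2 KO arrays were all above wild type, and of the Sohlh1 KO arrays 3 were above it and Sohlh1 KO 1 was below. Hoxc9 averaged 10.28 ± 0.25 in Sohlh2 KO (SD, n = 3) and 9.39 ± 0.20 in wild type (SD, n = 4), 1.85-fold higher (0.89, SE 0.254, adjusted p = 0.0211, limma). In Sohlh1 KO it averaged 9.90 ± 0.56 (SD, n = 4), a difference of 0.51 (adjusted p = 0.12), and without Sohlh1 KO 1 it was 0.74 (adjusted p = 0.00947). The Sohlh2 KO call was lost without Sohlh2 KO 2 (0.74, adjusted p = 0.0964), wild type 1 (0.86, adjusted p = 0.0503) or wild type 3 (0.83, adjusted p = 0.0552), and with a fixed chip block (0.576, adjusted p = 0.428).

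Hoxc6, the brightest HoxC probe and a gene of the brachial and thoracic region, was at 10.69, 11.83, 11.19 and 11.30 in Sohlh1 KO, at 11.55, 11.66 and 11.59 in Sohlh2 KO and at 11.54, 11.54, 11.40 and 11.40 in wild type. Sohlh1 KO arrays lay on both sides of wild type, with Sohlh1 KO 1 the lowest, and the 3 Sohlh2 KO arrays lay just above it. Differences were -0.22 in Sohlh1 KO (95% interval -0.63 to 0.19) and 0.13 in Sohlh2 KO (95% interval -0.31 to 0.57), and neither passed. Hoxc4, Hoxc5 and Hoxc10 were not called either, with differences of -0.24, 0.49 and 0.27 in Sohlh1 KO and -0.31, 0.38 and 0.38 in Sohlh2 KO. The median over the cluster was 0.27 in Sohlh1 KO and 0.38 in Sohlh2 KO.

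HoxD was the cluster in which each tested gene, read by its brightest probe, had a negative difference in both knockouts. Of its 5 tested genes, Hoxd4 and Hoxd10 fell in Sohlh1 KO (40%, beside 32.7% of all genes called). In Sohlh2 KO, Hoxd4 fell (20%, beside 25.5% of all genes called). The medians were -0.35 in Sohlh1 KO and -0.47 in Sohlh2 KO, beside 0.03 and 0.04 over all genes tested. For Hoxd8 in Sohlh2 KO the sign turned with a fixed chip block (0.0641), and a second Hoxd9 probe was at 0.02 in Sohlh1 KO. Hoxd3 and Hoxd9 did not pass in either knockout.

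Hoxd4, an anterior HoxD gene known for cervical vertebral patterning, was at 8.12, 8.45, 8.51 and 8.47 in Sohlh1 KO, at 8.64, 8.60 and 8.65 in Sohlh2 KO and at 9.37, 9.42, 9.14 and 9.06 in wild type. All 7 knockout arrays were below all wild-type arrays, and the 4 Sohlh1 KO arrays were also below the 3 Sohlh2 KO arrays. Hoxd4 averaged 8.39 ± 0.18 in Sohlh1 KO and 9.25 ± 0.17 in wild type (SD, n = 4 each), 1.82-fold lower (-0.86, SE 0.127, adjusted p = 0.000171, limma). In Sohlh2 KO it averaged 8.63 ± 0.03 (SD, n = 3), 1.54-fold lower (-0.62, SE 0.137, adjusted p = 0.00484). A fixed chip block gave -0.966 in Sohlh1 KO and -0.825 in Sohlh2 KO.

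Hoxd10, a posterior HoxD gene known for lumbar motor neurons and limb patterning, was at 9.07, 9.34, 8.74 and 9.73 in Sohlh1 KO, at 9.65, 9.60 and 9.50 in Sohlh2 KO and at 9.74, 10.28, 10.25 and 10.54 in wild type. No knockout array reached the lowest wild-type array, although Sohlh1 KO 4 came within 0.01 of wild type 1. Hoxd10 averaged 9.22 ± 0.42 in Sohlh1 KO and 10.20 ± 0.34 in wild type (SD, n = 4 each), 1.98-fold lower (-0.98, SE 0.208, adjusted p = 0.00276, limma). In Sohlh2 KO it averaged 9.58 ± 0.08 (SD, n = 3), and the difference of -0.62 (SE 0.224) did not pass the test (adjusted p = 0.0598). That difference passed without wild type 1 (-0.78, adjusted p = 0.0238), and at -0.62 without Sohlh1 KO 3 or Sohlh1 KO 4 (adjusted p = 0.0384 and 0.0319).

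Hoxd8, the brightest HoxD probe, was at 10.37, 10.12, 9.97 and 9.96 in Sohlh1 KO, at 10.29, 10.26 and 10.11 in Sohlh2 KO and at 10.50, 10.57, 10.38 and 10.31 in wild type. Only Sohlh1 KO 1 lay within the wild-type range. Differences were -0.34 in Sohlh1 KO (SE 0.124, adjusted p = 0.0534, limma), which passed without Sohlh1 KO 1 (-0.43, adjusted p = 0.00995), and -0.22 in Sohlh2 KO (adjusted p = 0.268). Hoxd9 differed by -0.12 in Sohlh1 KO and -0.47 in Sohlh2 KO (adjusted p = 0.662 and 0.103), and a second Hoxd9 probe by 0.02 and -0.06. Hoxd3 differed by -0.35 and -0.12 (adjusted p = 0.173 and 0.718).

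**Figure D3:**
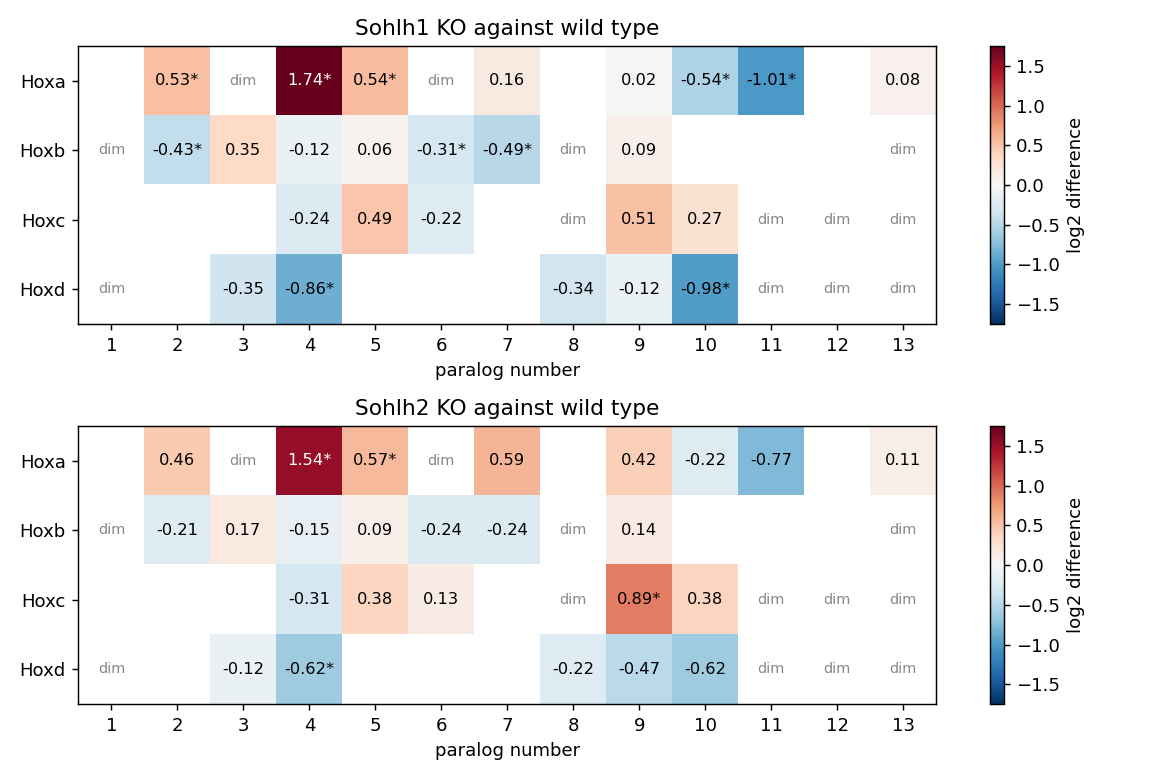
Log2 difference of each tested Hox gene by cluster (rows) and paralog number (columns), in Sohlh1 KO against wild type (top) and Sohlh2 KO against wild type (bottom). A star marks an adjusted p under 0.05, "dim" a gene not tested, and an empty cell a gene not measured here. Each gene is read by its brightest probe. The top of the scale is Hoxa4 at 1.74 and 1.54, and the HoxD row is negative throughout in both panels.

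Promoter sequences were available for 22 of the 38 Hox genes, as windows of 250 bases before to 50 after a gene's start (24 windows, RefSeq, build GRCm38.p6). Those of 3 called genes are shown, Hoxa5 (higher in both knockouts), Hoxd4 (lower in both) and Hoxd10 (lower in Sohlh1 KO). Hoxa4 had no window. Capitals mark the E-box core CANNTG, which basic helix-loop-helix proteins bind and which reads alike on both strands. Its form with C and G in the middle, CACGTG, was also counted on its own and is called the canonical E-box below. The Hoxa5 window lies at chr6:52204538-52204837 on the minus strand, the Hoxd4 window at chr2:74721728-74722027 and the Hoxd10 window at chr2:74691641-74691940, both on the plus strand, and all are printed 5′ to 3′.
Hoxa5: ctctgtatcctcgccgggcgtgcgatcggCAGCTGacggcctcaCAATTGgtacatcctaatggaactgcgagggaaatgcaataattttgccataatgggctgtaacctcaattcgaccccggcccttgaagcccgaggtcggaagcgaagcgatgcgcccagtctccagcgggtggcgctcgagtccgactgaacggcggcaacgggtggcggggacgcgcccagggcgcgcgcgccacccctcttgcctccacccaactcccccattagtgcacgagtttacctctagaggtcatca
Hoxd4: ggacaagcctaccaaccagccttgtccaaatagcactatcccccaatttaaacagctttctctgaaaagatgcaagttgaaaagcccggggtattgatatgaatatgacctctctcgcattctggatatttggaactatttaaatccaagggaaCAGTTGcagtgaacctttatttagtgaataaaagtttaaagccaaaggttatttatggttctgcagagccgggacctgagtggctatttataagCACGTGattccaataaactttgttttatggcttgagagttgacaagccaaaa
Hoxd10: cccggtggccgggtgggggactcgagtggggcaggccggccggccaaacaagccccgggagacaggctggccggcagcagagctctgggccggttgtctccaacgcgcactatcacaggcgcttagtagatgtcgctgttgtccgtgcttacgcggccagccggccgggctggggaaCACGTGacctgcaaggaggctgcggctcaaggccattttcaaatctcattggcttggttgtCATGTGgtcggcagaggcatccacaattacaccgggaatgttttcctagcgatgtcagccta
Each of the 3 windows holds 2 E-box cores, and 1 of those in Hoxd4 and 1 in Hoxd10 are of the canonical form. The core was in 17 of 24 Hox windows (70.8%), beside 72.3% of all 32851 promoter windows. Among the 7 windows of Hox genes called in Sohlh1 KO it was in 5 (71.4%), and the Hoxa10 windows held 0. The canonical form was in 5 of 24 (20.8%), namely windows of Hoxd1, Hoxd4, Hoxd10, Hoxd11 and Hoxd13, beside 7.15% of all windows. All of these lie in HoxD, and Hoxd1, Hoxd11 and Hoxd13 were too dim to be tested. These matches describe letters in the windows and no binding was measured.

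Paralog groups 2 and 4 held genes called in opposite directions. In paralog group 4 all 4 genes were tested in both knockouts: Hoxa4 rose and Hoxd4 fell, while Hoxb4 differed by -0.12 in Sohlh1 KO and -0.15 in Sohlh2 KO and Hoxc4 by -0.24 and -0.31, without passing. In paralog group 2, Hoxa2 rose and Hoxb2 fell in Sohlh1 KO. Group 5 was positive for all 3 of its genes in both knockouts, with Hoxa5 the called one and Hoxb5 at 0.06 in Sohlh1 KO and 0.09 in Sohlh2 KO. In group 10, Hoxa10 and Hoxd10 fell in Sohlh1 KO and Hoxc10 was at 0.27 without passing. All 4 genes of group 9 were tested, with 0 called in Sohlh1 KO and Hoxc9 called in Sohlh2 KO. Differences between paralogs were not themselves tested.

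Binned along the clusters, paralogs 1 to 4 had 2 higher and 2 lower calls among 8 genes in Sohlh1 KO (median -0.18), paralogs 5 to 8 had 1 higher and 2 lower among 8 (median -0.08), and paralogs 9 to 13 had 0 higher and 3 lower among 9 (median 0.02). In Sohlh2 KO the same bins had 1 higher and 1 lower (median -0.14), 1 higher and 0 lower (median 0.11) and 1 higher and 0 lower (median 0.11). Over all genes, 16.3% were called higher and 16.4% lower in Sohlh1 KO, and 12.5% and 13% in Sohlh2 KO. Differences between the bins were not tested. The 3 lower calls of paralogs 9 to 13 include Hoxa10 and Hoxa11, which met the detection filter only through wild type, where they were higher. The 2 genes called higher in HoxA in both knockouts, Hoxa4 and Hoxa5, have paralog numbers 4 and 5. The lower calls of HoxD were Hoxd4 in both knockouts and Hoxd10 in Sohlh1 KO, while Hoxd8 and Hoxd9 between them were not called.

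**Figure D4:**
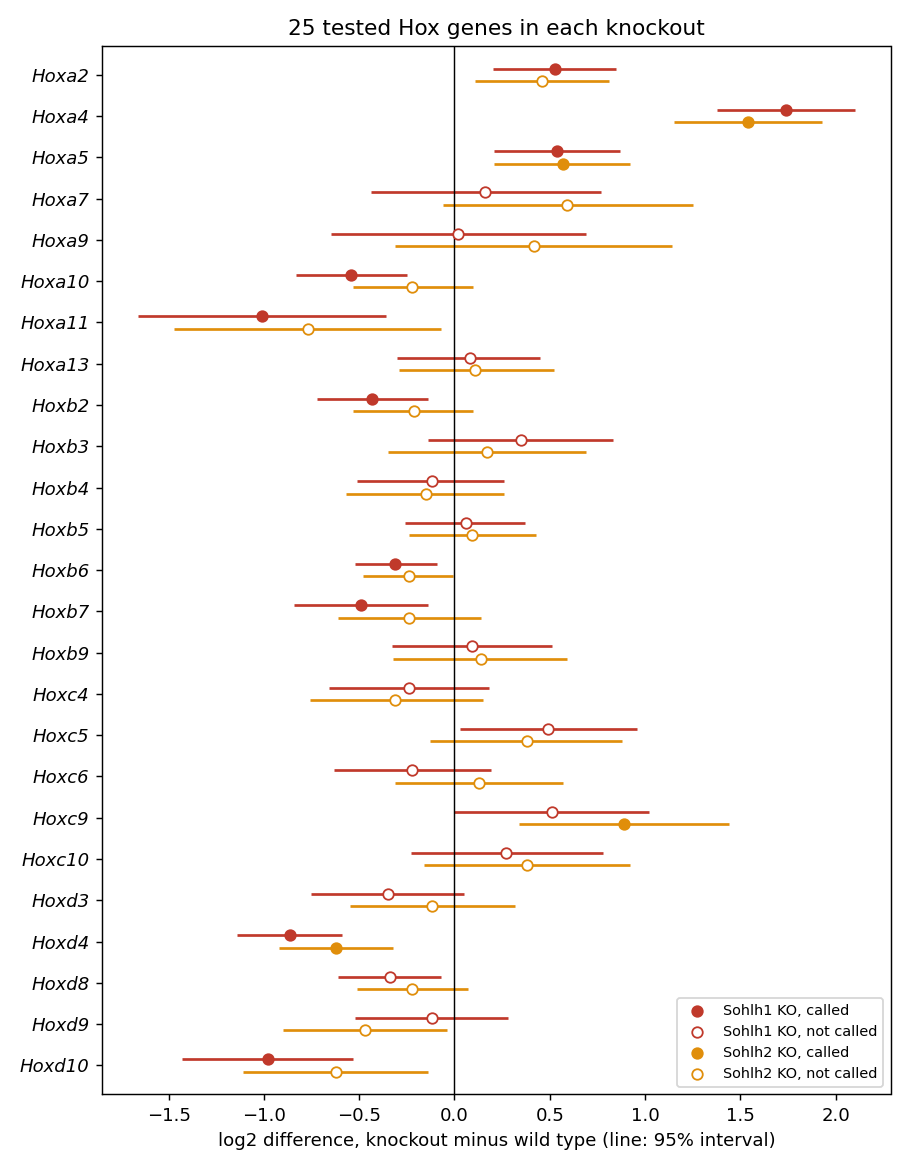
Log2 difference from wild type (horizontal axis) of the 25 tested Hox genes in Sohlh1 KO (red) and Sohlh2 KO (orange). Lines are 95% intervals and filled points have an adjusted p under 0.05. Hoxa4 stands apart at 1.74 and 1.54, and for every gene the intervals of the 2 knockouts overlap.

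No Hox gene was called between the knockouts. Set directly against each other, Sohlh1 KO and Sohlh2 KO differed past the threshold in 0 of 25 Hox genes, where 0.0375% of all genes (5 of 13350) did, by limma, 0.03% higher and 0.00749% lower. The lowest adjusted p of a Hox gene was 0.569, for Hoxa10 (-0.32, 95% interval -0.64 to -0.01), which was also the 1 Hox gene at an unadjusted p under 0.05. The intervals extended by a median of 0.43 to each side and reached as low as -1.12 (Hoxa9) and as high as 0.78 (Hoxd9), while that of Hoxb6 ran from -0.30 to 0.17, so the size of difference that could have been missed varied by gene. Hoxd4 was the 1 Hox gene whose arrays did not overlap between the knockouts (7.61% of all genes did not), at -0.24 (95% interval -0.54 to 0.05, adjusted p = 0.688). Hoxa4, the gene furthest from wild type, differed between them by 0.20 (95% interval -0.19 to 0.59). A gene called in 1 knockout and not in the other is therefore not shown to differ between them.

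Some arrays stood at the edge of their group for many Hox genes. Sohlh2 KO 2 was the highest of its 3 arrays for 17 of 25 Hox genes and Sohlh2 KO 4 the lowest for 15. Sohlh1 KO 4 was the highest of its 4 arrays for 10 genes and Sohlh1 KO 3 the lowest for 9. The median deviation of an array from its group mean over the 25 genes ran from -0.13 (Sohlh1 KO 3) to 0.15 (Sohlh1 KO 4).

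For 7 Hox genes, 8 further probes were kept. Those of Hoxa2 and Hoxb7 went the same way as the brightest probe and are given above. That of Hoxd9 disagreed with its brightest probe in sign in Sohlh1 KO (0.02 and -0.12) and in size in Sohlh2 KO (-0.06 and -0.47). Hoxb3 also had probes that disagreed in sign in Sohlh1 KO, at 0.35 for the brightest and -0.40 and 0.01 for the others, none of which passed. In Sohlh2 KO they were at 0.17, -0.31 and -0.20. The second probe of Hoxa9 gave 0.17 in Sohlh1 KO and 0.51 in Sohlh2 KO, that of Hoxc10 gave 0.04 and 0.20, and that of Hoxa13 gave 0.09 and -0.06. None of these was called, and the Hoxa13 probes disagreed in sign in Sohlh2 KO, where the brightest was at 0.11.

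Hox proteins bind DNA together with TALE homeodomain partners of the Pbx, Meis and Pknox families. Among 8 tested cofactor genes, 2 were higher and 1 lower in each knockout, where 32.7% of all genes were called in Sohlh1 KO and 25.5% in Sohlh2 KO, with medians of 0.04 in Sohlh1 KO and 0.12 in Sohlh2 KO. Pbx2 was 1.64-fold higher in Sohlh1 KO (8.87 ± 0.22, against 8.16 ± 0.07 in wild type, adjusted p = 0.000776, limma) and 1.49-fold higher in Sohlh2 KO (8.73 ± 0.11, adjusted p = 0.00814). Pbx3 was higher by 0.50 in Sohlh1 KO and 0.74 in Sohlh2 KO (adjusted p = 0.01 and 0.00163). Meis2 fell in Sohlh1 KO, to 11.42 ± 0.17, against 12.16 ± 0.11 in wild type (-0.74, adjusted p = 3e-04), and Pbx4 fell in Sohlh2 KO (-0.72, adjusted p = 0.031).

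Polycomb proteins keep Hox genes silent and Trithorax proteins keep them active. Of 21 tested Polycomb genes, 2 were higher and 1 lower in each knockout, beside 32.7% of all genes called in Sohlh1 KO and 25.5% in Sohlh2 KO, with medians of -0.01 in Sohlh1 KO and 0 in Sohlh2 KO. Phc1, a subunit of Polycomb repressive complex 1, was higher by 0.68 in Sohlh1 KO and 0.56 in Sohlh2 KO (limma, adjusted p = 0.00107 and 0.00855), and Phf19, a partner of complex 2, by 0.58 and 0.68 (adjusted p = 0.0079 and 0.00596). Eed, a core subunit of complex 2, was called lower in Sohlh2 KO (-0.48, adjusted p = 0.0447), and Rbbp7, a histone-binding subunit of several complexes, in Sohlh1 KO (-0.53, adjusted p = 0.0485). Among 9 genes of the Trithorax list, 3 were higher and 1 lower in Sohlh1 KO and 0 were called in Sohlh2 KO (32.7% and 25.5% of all genes), with medians of 0.15 and 0.27. The histone methyltransferase gene Kmt2b (0.63, adjusted p = 0.0107), the subunit gene Ash2l (0.39, adjusted p = 0.0224) and the demethylase gene Kdm6a (0.31, adjusted p = 0.0485) rose in Sohlh1 KO, and the demethylase gene Kdm6b fell (-0.73, adjusted p = 0.0218).

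Cdx factors and retinoic acid act upstream of Hox genes in the embryo. Of 12 tested genes of that list, 4 rose and 0 fell in each knockout, with medians of 0.37 in Sohlh1 KO and 0.26 in Sohlh2 KO. Over all genes, 16.3% were called higher and 16.4% lower in Sohlh1 KO, and 12.5% and 13% in Sohlh2 KO. Cdx2 and Cdx4 were above background on 0 arrays. Aldh1a2, which makes retinoic acid, was at 8.71 ± 0.25 in Sohlh1 KO (SD, n = 4), 8.64 ± 0.21 in Sohlh2 KO (SD, n = 3) and 7.27 ± 0.27 in wild type (SD, n = 4), a rise of 2.71-fold and 2.57-fold (limma, adjusted p = 2.19e-05 and 9.04e-05). The receptor gene Rarb, itself a known retinoic acid target, was at 8.09 ± 0.09, 8.48 ± 0.26 and, in wild type, 7.15 ± 0.14, a rise of 1.92-fold in Sohlh1 KO and 2.51-fold in Sohlh2 KO (adjusted p = 0.000112 and 1.31e-05). Crabp1 and Crabp2, which bind retinoic acid in the cytoplasm, rose by 1.39 and 0.68 in Sohlh1 KO (adjusted p = 0.006 and 0.0125) and by 1.46 and 1.07 in Sohlh2 KO (adjusted p = 0.00925 and 0.00137).

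**Figure D5:**
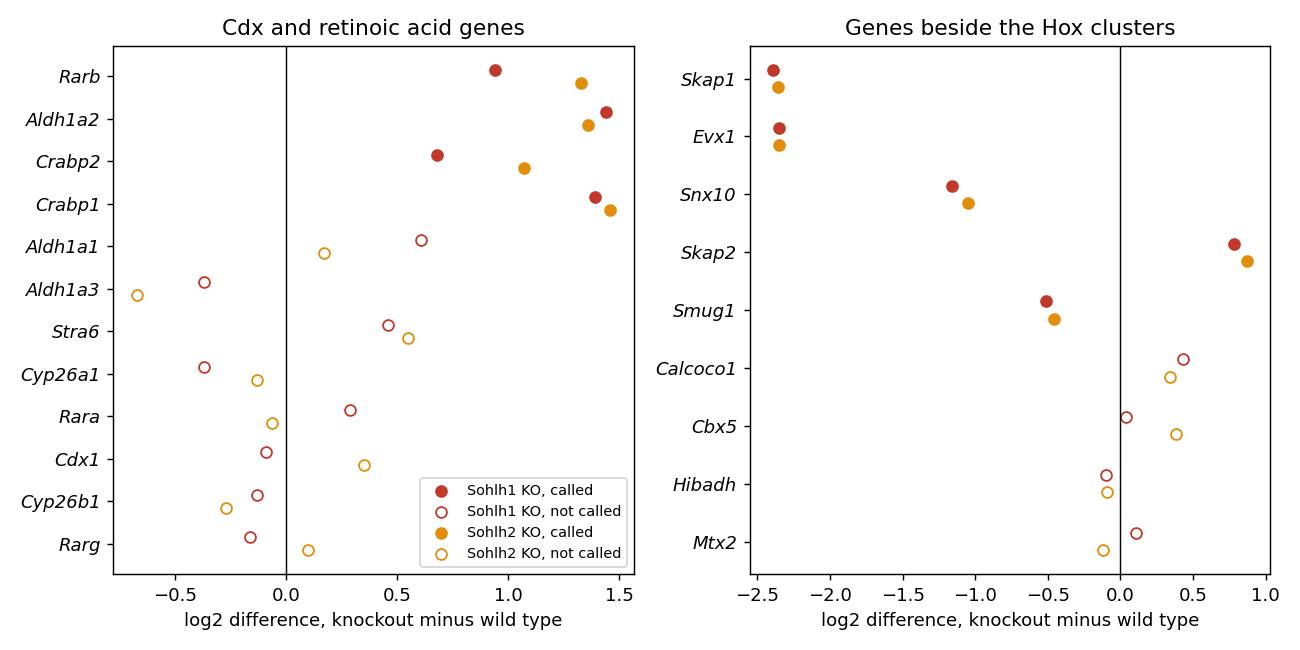
Log2 difference from wild type of tested Cdx and retinoic acid genes (left) and tested genes beside the Hox clusters (right), in Sohlh1 KO (red) and Sohlh2 KO (orange), with filled points at an adjusted p under 0.05. On the left 4 of 12 genes are called, all higher, and on the right 4 of 9 are called lower and 1 higher, in each knockout.

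Of 9 tested genes beside the clusters, 1 was higher and 4 lower in each knockout, where 16.3% of all genes were called higher and 16.4% lower in Sohlh1 KO and 12.5% and 13% in Sohlh2 KO, with medians of -0.10 in Sohlh1 KO and -0.12 in Sohlh2 KO. Evx1, a homeobox gene beyond Hoxa13, was at 5.15 ± 0.29 in Sohlh1 KO (SD, n = 4), 5.15 ± 0.19 in Sohlh2 KO (SD, n = 3) and 7.50 ± 0.28 in wild type (SD, n = 4), lower by 5.10-fold and 5.09-fold (limma, adjusted p = 3.23e-07 and 9.36e-07). Both knockout means of Evx1 were near background, so the size of these folds is uncertain. Hoxa13 itself differed by 0.08 and 0.11. Skap1, an adaptor gene beyond Hoxb1, was lower by 5.23-fold in Sohlh1 KO and 5.14-fold in Sohlh2 KO (adjusted p = 1.09e-07 and 3.4e-07). Beyond the low end of HoxA, Skap2 was higher by 0.78 in Sohlh1 KO and 0.87 in Sohlh2 KO (adjusted p = 0.00038 and 0.000372), and Snx10, the gene after it, was lower by 1.16 in Sohlh1 KO on the log2 scale (adjusted p = 7.63e-06) and by 1.05 in Sohlh2 KO (adjusted p = 5.11e-05). Gene order is that of the RefSeq gene table.

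Of 20 tested genes of the Müllerian duct and reproductive tract list, 5 rose and 6 fell in Sohlh1 KO and 4 rose and 4 fell in Sohlh2 KO (32.7% and 25.5% of all genes were called), with medians of 0.17 and 0.19. The 4 genes with the smallest adjusted p, given here, all fell. Ovgp1 was at 9.14 ± 0.14 in Sohlh1 KO (SD, n = 4), 9.89 ± 0.12 in Sohlh2 KO (SD, n = 3) and 13.27 ± 0.29 in wild type (SD, n = 4), lower by 17.5-fold and 10.4-fold (limma, adjusted p = 2.96e-10 and 5.62e-09). Foxj1, the regulator of motile cilia, was lower by 2.20-fold and 2.05-fold. The steroid receptor gene Esr1 was lower by 1.79-fold in Sohlh1 KO and 1.38-fold in Sohlh2 KO (adjusted p = 0.000608 and 0.0435). Pgr, the progesterone receptor gene, was above background on 0 Sohlh1 KO arrays and at least 2.03-fold lower there, and 1.92-fold lower in Sohlh2 KO. The adjusted p of its measured differences was 7.85e-05 in Sohlh1 KO and 0.003 in Sohlh2 KO (limma). These tract genes and the oviduct markers above share Ovgp1, Foxj1 and Pax8, and their part in the lower Hoxa10 and Hoxa11 was not tested.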

How the data were processed

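The deposited intensity table holds linear intensity values of 45281 probes on 11 arrays, read with BeadStudio 3.2 per the submitters' processing notes, from 500 ng of total RNA per labelling per the labels' protocols. Its values were found to be quantile normalized already (probes of equal rank lay within 11.2 units of each other on all arrays) and not background-subtracted (lowest 98.39). The deposited log2 values of the series matrix equal the log2 of that intensity within 0.005 and served as an alternative. Which earlier steps the authors ran is not given in the sources used here. A shift shared by most genes cannot be seen in values normalized this way.

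Background was corrected by normexp with an offset of 16, with 1276 olfactory receptor probes as negative controls, followed by quantile normalization and log2 (limma 3.58.1, statmod 1.5.0, R 4.3.3). The background level was 149.3 to 158.9 on the intensity scale, and the number of arrays limits the precision. Probes with 1 gene symbol (34885) were named, and those with several (18) or without one (10378) were not. All 57 Hox probes kept their symbol when looked up by Entrez identifier, and 33 of them were kept. Group means of all 3 genotypes were estimated in 1 linear model over the 11 arrays and 13350 genes, leaving 8 residual degrees of freedom, with moderated statistics and Benjamini-Hochberg adjustment, and the fit was tested on simulated data. No arrays were identical (0 pairs). Where a group had 0 arrays above background, its values were raised to that level for a lower bound on the fold. The p-values are those of the measured values, and the bounds were not tested.

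Values in every array are given for Hox genes called in any comparison and for the brightest Hox probe of each cluster, and up to 4 genes with the smallest adjusted p are named from every other list. The members, the lists and the tests were chosen with earlier results of these data known. Lists were described by counts and medians, without a test of the list. Alternatives changed the background correction, the normalization, the filter, the probe rule, the chip, the replicate block, the samples fitted, the array weights and the arrays left out.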

Additional observations from a re-analysis of the deposited data

Results flagged for a closer look

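Of 50 pairs of a Hox gene and a group of 4 arrays, 3 had an array that stood far from the other 3, measured by its gap to the nearest one over the group's range. Chance gives this in about 1 of 20 such groups. Hoxd4 in Sohlh1 KO 1 was at 8.12, against 8.45 to 8.51 on the other Sohlh1 KO arrays, so the distant array lay further from wild type than the others. Hoxa13 in wild type 3 was at 4.81, with the others at 5.10 to 5.13. Hoxc5 in wild type 1 was at 5.09, with the others at 4.64 to 4.66, and it was the 1 wild-type array on which Hoxc5 was above background. The cause of these gaps was not tested.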

How the results depend on the processing

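Over the alternatives run, 2 Hox genes kept their direction and call in both knockouts: Hoxa4 (0.784 to 1.93 in Sohlh1 KO, 0.665 to 1.91 in Sohlh2 KO) and Hoxd4 (-0.966 to -0.678 and -0.825 to -0.497). Hoxd10 (-1.15 to -0.823) and Hoxa10 (-0.663 to -0.17) kept theirs in Sohlh1 KO, although Hoxa10 and Hoxa11 did not pass the strict filter on dim probes and have no value there. Without background correction Hoxa10 was at -0.17 and Hoxa11 at -0.331. Between the knockouts, 0 Hox genes were called under every alternative.

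Hox genes called lower in Sohlh2 KO numbered 1, against 2 without background correction, with an offset of 50, on the series matrix values, under the replicate block and with only the groups compared, 3 under cyclic loess and 5 with array weights. Those called higher there numbered 3, against 1 with chip as a fixed block and 5 with only the groups compared or with array weights. Those called lower in Sohlh1 KO numbered 7, against 4 with chip as a fixed block and 3 on chip 1 alone or without wild type 2 and 3, whose titles carry a letter b. Leaving out 1 array gave 2 to 5 higher and 3 to 7 lower in Sohlh1 KO, and 1 to 5 higher and 1 to 3 lower in Sohlh2 KO. Over all genes, 4367 were called in Sohlh1 KO (2540 without wild type 2 and 3, 3429 to 4732 leaving out 1 array) and 3403 in Sohlh2 KO (1712 with chip as a fixed block, 5225 with array weights, 1868 without wild type 2 and 3, 2437 to 4129 leaving out 1 array). Between the knockouts 5 were called, against 1 without background correction, on the series matrix values or with only the groups compared, 2 without wild type 2 and 3, 8 under cyclic loess, 26 with chip as a fixed block, 21 on chip 2 alone, 45 with array weights, and 1 to 69 leaving out 1 array, with 69 reached without Sohlh1 KO 1. Cyclic loess gave 1738 higher and 2469 lower in Sohlh1 KO (quantile 2174 and 2193) and 1235 and 2005 in Sohlh2 KO (quantile 1671 and 1732). The cause of these changes was not tested.

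Signs turned only for differences that had not passed the test. Against wild type, Hoxa7 in Sohlh1 KO was at -0.0248 with chip as a fixed block or on chip 1 alone and -0.0636 to 0.52 leaving out 1 array (lowest without Sohlh1 KO 2), and in Sohlh2 KO chip as a fixed block gave 0.0564 for Hoxb2 and 0.0641 for Hoxd8. Between the knockouts, Hoxa5 was at 0.0943 (chip as a fixed block, chip 2 alone), 0.0226 (array weights) and, leaving out 1 array, -0.127 to 0.0676, positive without Sohlh1 KO 2 (0.0482) or Sohlh2 KO 2. Leaving out 1 array gave -0.473 to 0.0381 for Hoxa11 (highest without Sohlh2 KO 2) and -0.105 to 0.207 for Hoxa2 (lowest without Sohlh2 KO 4).

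Replicate numbers did not pair the samples: deviations of equally numbered arrays correlated at -0.201 to 0.129. With the number as a replicate block, 4330 genes were called in Sohlh1 KO, 3160 in Sohlh2 KO and 7 between them. Hoxd8 in Sohlh1 KO (-0.337, adjusted p = 0.0417, limma) and Hoxd10 in Sohlh2 KO (-0.723, adjusted p = 0.026) then passed and Hoxa5 in Sohlh2 KO did not (0.549, adjusted p = 0.0621).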
